A study of Mus musculus with 16 samples.

Results

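The genes of CTCF and cohesin were followed in B cells of the splenic follicle (FO) and of the marginal zone (MZ), from WT mice and from mice lacking Gtf2i in B cells. They are Ctcf, the genes of the cohesin ring Smc1a, Smc3, Rad21, Stag1 and Stag2, the loader gene Nipbl, the release gene Wapl, and the regulators Pds5a and Pds5b. The 10 genes were chosen by their symbols among the 27928 genes of the table of normalized counts, and all 10 of them passed the filter on low values that left 14761 genes for testing. FO B cells (CD21lo CD23hi) and MZ B cells (CD21hi CD23lo) were sorted from spleens of C57BL/6 mice aged 8 to 12 weeks, and total RNA depleted of ribosomal RNA was sequenced. The 4 groups were WT FO, WT MZ, cKO FO and cKO MZ, with 2 libraries in each. WT mice carried the unmodified C57BL/6 alleles, and the cKO mice carried floxed (fl/fl) Gtf2i alleles and a Cre that acts in the whole B lineage. The floxed alleles, Cre and the loss of Gtf2i therefore cannot be told apart in the genotype comparison. The mice received no treatment, and the FO and MZ groups of a genotype carried the same alleles.

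Cohesin is a ring of the ATPases SMC1A and SMC3 closed by the kleisin RAD21, with STAG1 or STAG2 bound to the kleisin. NIPBL with its partner MAU2 loads the ring and drives it along chromatin so that a loop is extruded, WAPL together with PDS5A or PDS5B releases it, and CTCF bound to its motif stops it. The same ring holds sister chromatids together after replication. In B cells, loops stopped by CTCF bring distant immunoglobulin gene segments together and shape class switching. The FO and MZ cells compared here are mature subsets that recirculate through follicles or stay at the marginal sinus.

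The libraries held 21546552 to 25083552 reads on genes. Gtf2i, the targeted gene, had 2039.8 and 1992 (WT) and 1523 and 1531 (cKO) normalized counts in the FO libraries, and 2864 and 2471 (WT) and 1782 and 1889 (cKO) in the MZ libraries, and in both subsets the cKO libraries were the lower ones. The sort markers matched the labels. Cr2, which encodes CD21, had 22942 to 26803 normalized counts in the FO and 86953 to 97087 in the MZ libraries. Library cKO MZ 1 stood apart by other cell types: its 10 granulocyte markers summed to 1968 normalized counts against 23.8 to 109 elsewhere, and its 5 erythroid markers to 12141 against 25.9 to 942. The X-linked Xist had 25929.5 and 31049.8 normalized counts in FO cells of WT mice and 14748 and 67.4 in those of cKO mice, against 42534 and 47002 (WT) and 89.7 and 21.7 (cKO) in MZ cells, and the Y-linked Ddx3y was at most 6.34 in WT and at least 2682 in cKO libraries. Genotype and sex-linked transcripts thus cannot be told apart, and cKO FO 1 held both Xist and Ddx3y.

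The promoters of 5 of the genes are shown because they belong to 3 genes that differed between FO and MZ B cells below (Ctcf, Smc3 and Stag1) and to 2 whose difference did not pass the test (Smc1a and Wapl). RefSeq promoters of GRCm38.p6 were matched for 7 of the 10 genes, and those of Nipbl, Rad21 and Stag2 are not shown. Each line gives the 100 bases before the RefSeq start, 5′ to 3′ on the strand of the gene. Capitals mark GGGCGG, the core of the Sp1 motif, and CCAAT, the core of the NF-Y motif, on either strand, so that they also read CCGCCC or ATTGG.
Ctcf (chr8:105636438-105636537, plus strand): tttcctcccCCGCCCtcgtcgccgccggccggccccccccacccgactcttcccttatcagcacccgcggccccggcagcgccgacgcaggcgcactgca
Smc3 (chr19:53600296-53600395, plus strand): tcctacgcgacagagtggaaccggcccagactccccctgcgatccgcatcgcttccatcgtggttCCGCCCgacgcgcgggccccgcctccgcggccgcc
Stag1 (chr9:100643348-100643447, plus strand): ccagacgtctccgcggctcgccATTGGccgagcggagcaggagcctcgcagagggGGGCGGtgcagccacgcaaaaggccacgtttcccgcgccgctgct
Smc1a (chrX:152016328-152016427, plus strand): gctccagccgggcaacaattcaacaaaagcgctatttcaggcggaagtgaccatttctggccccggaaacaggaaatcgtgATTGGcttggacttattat
Wapl (chr14:34673828-34673927, plus strand): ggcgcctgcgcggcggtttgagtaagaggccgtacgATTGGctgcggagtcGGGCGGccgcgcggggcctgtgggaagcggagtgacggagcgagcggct
The Ctcf, Smc3, Smc1a and Wapl stretches lie before the start of the gene in GENCODE M21, and the Stag1 stretch lies in an intron of a longer Stag1 transcript. The Ctcf stretch also falls within the genes Agrp and Gm5914 of the opposite strand, outside their exons.

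Over the 250 bases before the start, GGGCGG was found in 7 of the 7 promoters and in 32.7% of all 32851 RefSeq promoters. CCAAT was found in 4 of the 7 (Pds5b, Stag1, Wapl and Smc1a) and in 33.8% of all promoters. The YY1 motif GCCATNTT was found in 2 (Pds5b and Stag1) and in 3.91% of all. The E-box CACGTG and the Ets motif CCGGAAG were found in none of the 7, and in 6.02% and 6.91% of all promoters. Both strands were searched, and none of the 5 motifs contains another. The G and C content of these 7 stretches was 56.8% to 80.4%, against a median of 52.4% over all promoters, and they held 16 to 44 CpG dinucleotides against a median of 6. Promoters of both the genes that differed and those that did not pass the test held GGGCGG.

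FO against MZ B cells was compared to learn how the subsets differ. Rad21, Nipbl, Smc3, Stag1, Stag2 and Ctcf had higher transcript levels in FO than in MZ B cells, by 1.15-fold for Ctcf to 1.45-fold for Rad21. Wapl, Smc1a, Pds5a and Pds5b had folds of 1.03 to 1.13 and did not pass the test. The values are normalized counts, which are reads divided by the size factor of the library, and each difference is on the scale of log2(normalized count + 1), FO minus MZ. One limma fit took in all 8 libraries, a gene passed at an adjusted p (Benjamini-Hochberg, over 14761 genes) of at most 0.05, and a call also needed a 1.5-fold difference. Over both genotypes, 6 of the 10 genes passed as higher in FO, against 16.3% of all genes tested. None of the 10 reached 1.5-fold, against 7.45% of all genes that passed and did. By limma 8 of the 10 had an unadjusted p under 0.05, as did 6509 of all 14761 genes tested, in either direction. DESeq2 and edgeR also put 6 of the 10 past the adjusted p and 0 past 1.5-fold. The difference was positive for all 10, except that Pds5a and Pds5b turned negative under quantile normalization and Pds5b without cKO FO 1, and its median was 0.26 against 0.0045 over all genes tested. In these sorted populations fewer cells of a type and less RNA per cell cannot be told apart, and because the labels do not say whether the libraries came from separate animals, the p-values measure the spread between libraries.

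**Figure D1:**
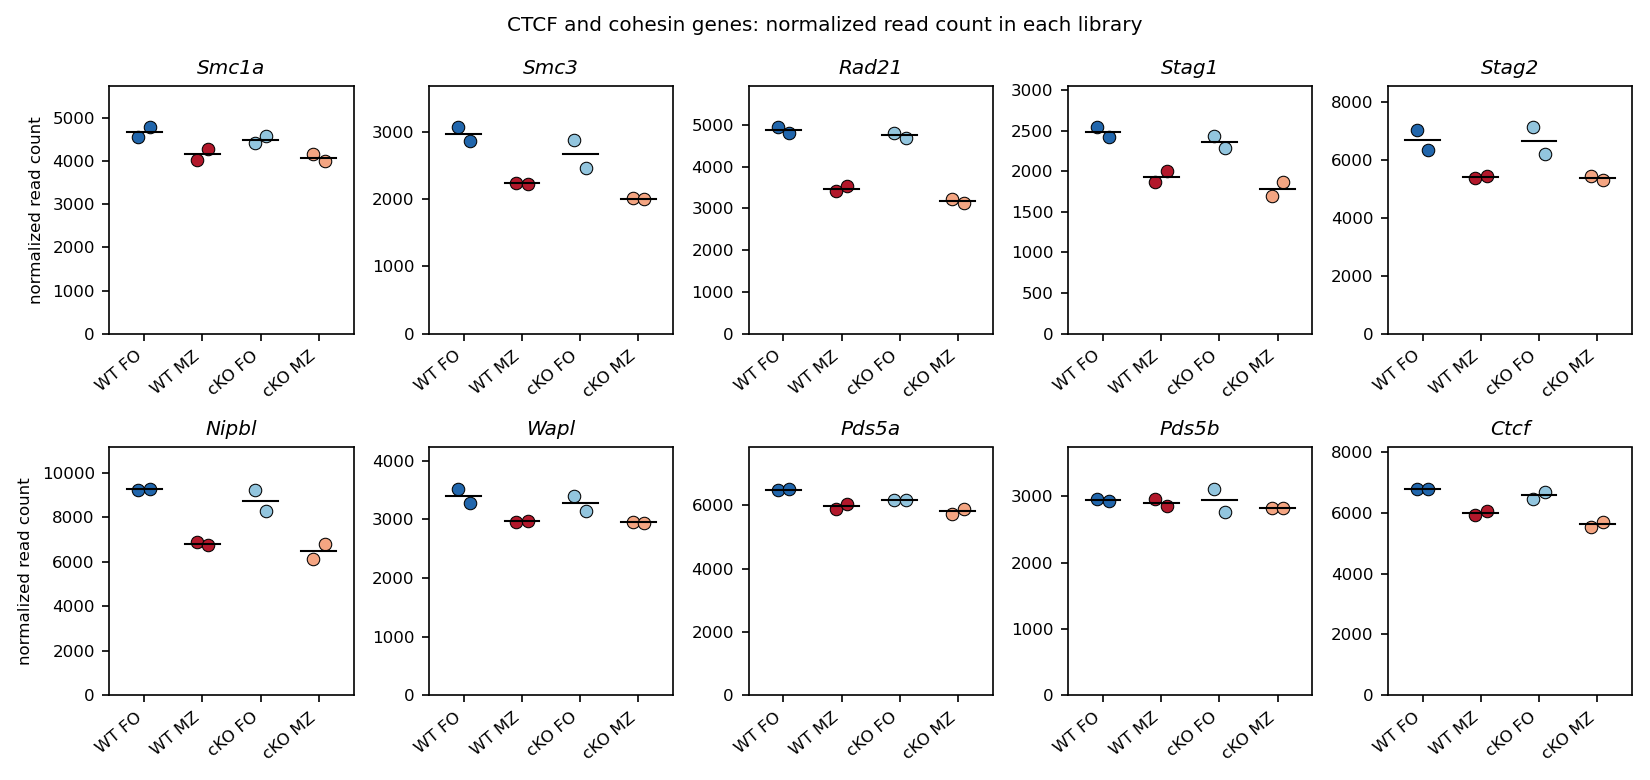
Normalized read count (linear axis from 0, reads divided by the size factor of the library) of the 10 genes in each library, by group. Points are the 2 libraries of a group and the line is their mean. In every panel but that of Pds5b the MZ points lie below the FO points.

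In the core ring, Rad21, the kleisin that closes the ring (ENSMUSG00000022314.10, chromosome 15 from 51962240 to 51991747, minus strand, GRCm38), had 4942 and 4805 (WT) and 4816 and 4681 (cKO) normalized counts in the FO libraries, and 3405 and 3532 (WT) and 3230.3 and 3125 (cKO) in the MZ libraries. All MZ libraries lay below all FO libraries, and within each subset the libraries lay close together. Its log2 difference was 0.54 over both genotypes (95% CI 0.41 to 0.66, limma adjusted p = 0.000268). It was 0.49 in WT (adjusted p = 0.00451, limma) and 0.58 in cKO mice (adjusted p = 0.00192, limma).

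Smc3, one of the paired ring ATPases (ENSMUSG00000024974.10, chromosome 19 from 53600398 to 53645833, plus strand), had 3063 and 2866 normalized counts in FO cells of WT mice and 2873 and 2452 in those of cKO mice, against 2240.2 and 2225 (WT) and 2013 and 1992 (cKO) in MZ cells. The FO and MZ libraries did not overlap, and cKO FO 2 was the lowest FO library. The log2 difference of Smc3 was 0.41 (95% CI 0.25 to 0.57, limma adjusted p = 0.00313). Smc1a, its ATPase partner (ENSMUSG00000041133.11, chromosome X from 152016428 to 152062694, plus strand), had 4549.6 and 4783 (WT) and 4420.5 and 4569.7 (cKO) normalized counts in the FO libraries, and 4025 and 4279 (WT) and 4158 and 3999.8 (cKO) in the MZ libraries. Its MZ libraries also lay below all FO libraries, but the gap was narrow, from 4279 to 4420 normalized counts. The log2 difference of Smc1a was 0.15 (95% CI 0.02 to 0.28), with a limma adjusted p of 0.0684.

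Of the STAG pair, which bind the kleisin in alternative rings, Stag1 (ENSMUSG00000037286.15, chromosome 9 from 100597798 to 100959375, plus strand) had 2541 and 2424 normalized counts in FO cells of WT mice and 2434 and 2283 in those of cKO mice, against 1865 and 2005 (WT) and 1700.4 and 1870.5 (cKO) in MZ cells. Each MZ library lay below each FO library, by a log2 difference of 0.38 (95% CI 0.23 to 0.53, limma adjusted p = 0.00318). Stag2 (ENSMUSG00000025862.14, chromosome X from 42149317 to 42277185, plus strand) had 7026 and 6350.4 (WT) and 7120.0 and 6193 (cKO) normalized counts in the FO libraries, and 5374 and 5429 (WT) and 5429 and 5302 (cKO) in the MZ libraries. Its MZ libraries spanned only 5302 to 5429, while in FO the first library of each genotype was higher than the second. The log2 difference of Stag2 was 0.31 (95% CI 0.15 to 0.46, limma adjusted p = 0.0107), and under quantile normalization the limma adjusted p was 0.0723. Smc1a and Stag2 are on the X chromosome. Within WT, where all libraries held Xist, their log2 differences were 0.17 and 0.31, and within cKO 0.14 and 0.31.

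Nipbl, the loader (ENSMUSG00000022141.7, chromosome 15 from 8290617 to 8444463, minus strand), had 9210.0 and 9274 normalized counts in FO cells of WT mice and 9199 and 8282 in those of cKO mice, against 6865 and 6765 (WT) and 6136 and 6779 (cKO) in MZ cells. It had the highest count of the 10 genes in FO and in MZ cells, and the lowest FO library was above the highest MZ library. The log2 difference of Nipbl was 0.44 over both genotypes (95% CI 0.29 to 0.59, limma adjusted p = 0.00161), 0.44 in WT and 0.44 in cKO mice. Wapl, the release factor (ENSMUSG00000041408.18, chromosome 14 from 34673928 to 34747983, plus strand), had 3522 and 3272 (WT) and 3405 and 3139 (cKO) normalized counts in the FO libraries, and 2952 and 2976 (WT) and 2952 and 2944 (cKO) in the MZ libraries. The MZ libraries of Wapl spanned only 2944 to 2976, and all were below the FO libraries. Its log2 difference was 0.17 (95% CI 0.04 to 0.31), and its limma adjusted p of 0.0546 missed the threshold.

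The regulatory subunits PDS5A and PDS5B, which act with WAPL in release and also protect cohesion, had the smallest differences. Pds5a (ENSMUSG00000029202.12, chromosome 5 from 65605721 to 65698273, minus strand) had 6478 and 6524 normalized counts in FO cells of WT mice and 6162 and 6170.1 in those of cKO mice, against 5895 and 6041 (WT) and 5733 and 5896 (cKO) in MZ cells. Its FO and MZ libraries did not overlap, with a log2 difference of 0.10 (95% CI -0.01 to 0.22, limma adjusted p = 0.158). Pds5b (ENSMUSG00000034021.15, chromosome 5 from 150673739 to 150810690, plus strand) had 2965 and 2933 (WT) and 3113 and 2768 (cKO) normalized counts in the FO libraries, and 2959 and 2849 (WT) and 2829.7 and 2819 (cKO) in the MZ libraries. The subsets of Pds5b overlapped, and its log2 difference of 0.04 had a 95% CI of -0.10 to 0.18 (limma adjusted p = 0.656).

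Ctcf, which encodes the zinc finger protein at loop anchors (ENSMUSG00000005698.15, chromosome 8 from 105636568 to 105682922, plus strand), had 6773 and 6793 normalized counts in FO cells of WT mice and 6469 and 6676 in those of cKO mice, against 5925 and 6045 (WT) and 5541 and 5699 (cKO) in MZ cells. The MZ libraries lay below the FO libraries in both genotypes, and the libraries of a group differed little. The log2 difference of Ctcf was 0.20 over both genotypes (95% CI 0.08 to 0.32, limma adjusted p = 0.0195), which is 1.15-fold. Under quantile normalization it was 0.066 (limma adjusted p = 0.376), and without any one of WT FO 1, WT MZ 1, cKO FO 2, cKO MZ 1 or cKO MZ 2 the limma adjusted p was 0.05003 to 0.0738. Rad21, Nipbl, Smc3 and Stag1 passed under all 15 alternatives for this comparison. For 9 of the 10 genes, all but Pds5b, each of the 4 MZ libraries lay below each of the 4 FO libraries, as did 17.9% of all genes tested.

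Within the genotypes, Rad21, Nipbl, Smc3 and Stag1 passed as higher in FO both in WT and in cKO mice. These 4 of 10 genes compare with 7.51% of all genes tested in WT and 9.29% in cKO mice. At 1.5-fold none of the 10 was called by limma, DESeq2 or edgeR in either genotype, against 4.62% of all genes in WT and 5.54% in cKO mice. An unadjusted limma p under 0.05 was seen for 7 of the 10 in WT and 6 in cKO mice. Of all 14761 genes tested, 4469 in WT and 4933 in cKO mice had one, in either direction. Without any single WT library Rad21 alone passed in WT, without cKO MZ 1 or cKO MZ 2 the count in WT was 2, and without cKO FO 1 or cKO MZ 1 Rad21 alone passed in cKO mice. Rad21 in cKO mice passed 1.5-fold, by 0.60 on the log2 scale, when cKO FO 2 or cKO MZ 1 was left out. The change of the FO and MZ difference between genotypes was small for all 10 genes, from -0.05 to 0.09 on the log2 scale. None passed the limma test of that interaction at the adjusted p of 0.05, nor by DESeq2 or edgeR, as for 0% of all genes tested by limma. None of the 10 had an unadjusted limma p under 0.05 for it either, against 94 of the 14761 genes tested.

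**Figure D2:**
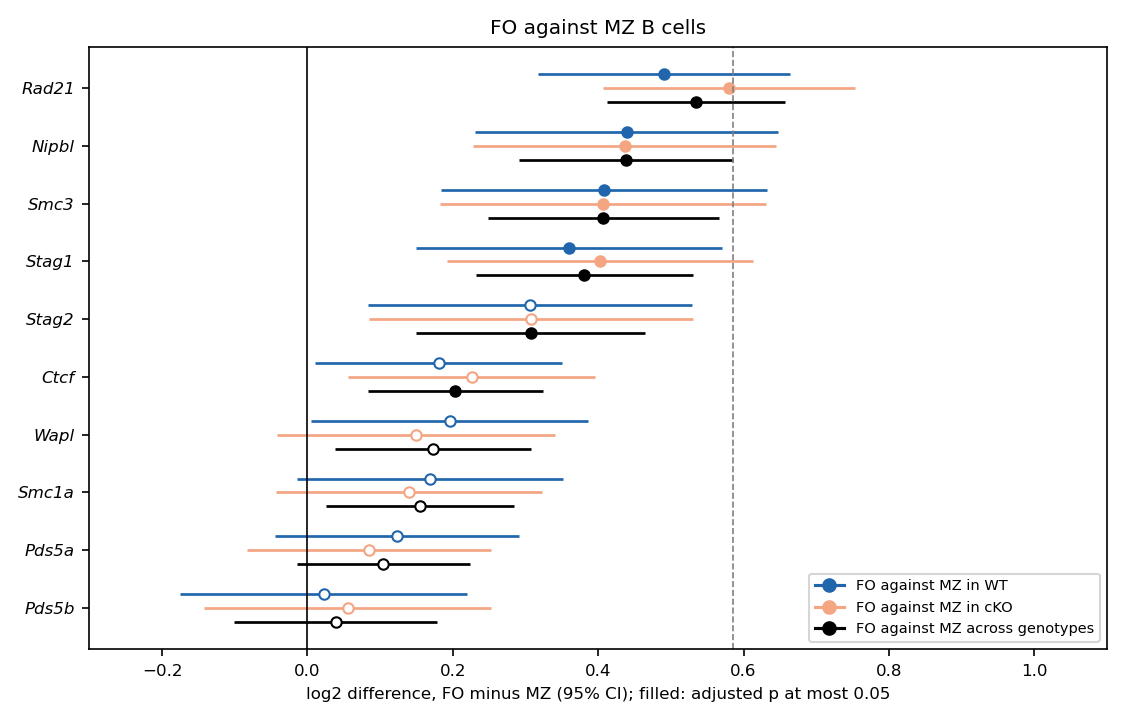
Log2 difference of FO minus MZ B cells on the log2(normalized count + 1) scale for the 10 genes, in WT, in cKO and across genotypes, with 95% confidence intervals from limma. Filled points have an adjusted p of at most 0.05 and the dashed line marks 1.5-fold. Rad21, Nipbl, Smc3 and Stag1 are filled in all 3 comparisons, and Stag2 and Ctcf only across genotypes.

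Levels were compared between the genes as normalized counts per kb of exon, over the union of the exons of each gene in GENCODE M21. Ctcf stood highest, at a mean of 1284 per kb over the 8 libraries, followed by Rad21 at 961, Nipbl at 829, Smc1a at 754 and Stag2 at 729. Wapl at 475, Smc3 at 445, Pds5a at 316, Pds5b at 295 and Stag1 at 182 per kb followed. Ctcf, at 1140.1 to 1398 per kb, and Stag1, at 144 to 216, were first and last in every group, with no library overlapping that of a neighbour. Neighbours did overlap for Smc1a with Stag2 and Smc3 with Wapl in both FO groups, for Nipbl with Smc1a in both MZ groups, and for Nipbl with Stag2 in cKO MZ. The spacing of Nipbl and Smc1a also differed between subsets, since Nipbl lay above Smc1a without overlap in both FO groups only. Annotated exons that B cells do not use lower a level per kb, which touches the order of genes but no difference between groups. The 10 genes together took 0.197% to 0.211% of all normalized counts in the FO and 0.175% to 0.186% in the MZ libraries.

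The genes did not move by the same factor, which shows in the ratios between their levels per kb in each library. These ratios follow from the differences above and are given as a description. Rad21 to Smc1a, the kleisin to a ring ATPase, was 1.37 to 1.49 in FO and 1.06 to 1.15 in MZ libraries. Nipbl to Wapl, the loader to the release factor, was 1.84 to 1.99 in FO and 1.46 to 1.63 in MZ. Ctcf to Rad21 was 1.17 to 1.24 in FO and 1.49 to 1.59 in MZ. In these 3 ratios no FO library overlapped an MZ library, in either genotype. Rad21 to Smc3 was 2.11 to 2.50 in FO and 1.99 to 2.10 in MZ, also without overlap but with a gap of 2.10 to 2.11. Smc3 to Smc1a, at 0.559 to 0.701 and 0.504 to 0.579, Stag1 to Stag2, at 0.240 to 0.268 and 0.220 to 0.259, and Pds5a to Pds5b, at 1.01 to 1.13 and 1.01 to 1.08, overlapped between FO and MZ.

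**Figure D3:**
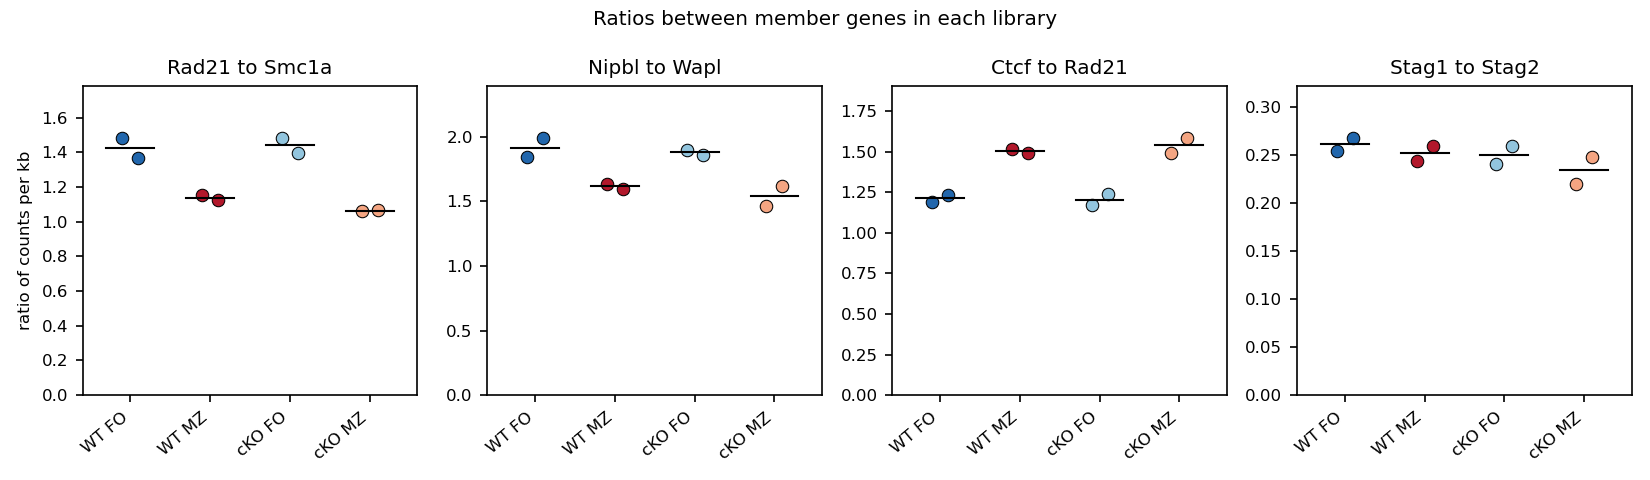
Ratio of normalized counts per kb of exon (linear axis from 0) between 4 pairs of the genes, by group. Points are the 2 libraries of a group and the line is their mean. Rad21 to Smc1a and Nipbl to Wapl lie higher in FO, Ctcf to Rad21 lies higher in MZ, and Stag1 to Stag2 overlaps.

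cKO against WT was compared to ask whether transcripts of these genes depend on Gtf2i. The differences were small in both subsets, and none of the 10 genes passed the test. In MZ B cells the log2 difference, cKO minus WT, ran from -0.16 for Smc3 to -0.00773 for Wapl, and in FO B cells from -0.16 for Smc3 to -0.0067 for Pds5b. All 10 values were below 0 in each subset, with medians of -0.0597 in MZ and -0.0539 in FO against -0.0146 and -0.00987 over all genes tested. That sign did not hold under every setting: Smc1a, Stag2, Wapl, Pds5a and Pds5b turned positive in MZ, and Stag2, Wapl and Pds5b in FO B cells, under other scalings or without 1 library. Over all genes, 0.0339% passed the adjusted p in MZ, 0.0677% in FO and 0.196% across subsets, in either direction. DESeq2 and edgeR also passed 0 of the 10 genes in each of these comparisons. By limma the count at an unadjusted p under 0.05 was 0 in MZ, 0 in FO and 1 across subsets. Of all 14761 genes tested, 596 in MZ, 382 in FO and 1230 across subsets had such a p.

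The gene with an unadjusted p under 0.05 was Smc3, whose log2 difference across subsets was -0.16 (95% CI -0.30 to -0.02, limma adjusted p = 0.56). In MZ B cells its cKO libraries lay below the WT libraries, at 2013 and 1992 against 2240.2 and 2225 normalized counts. In FO B cells the groups of Smc3 overlapped, with cKO FO 1 at 2873 above WT FO 2 at 2866. Without cKO FO 2 its log2 difference in FO was -0.044.

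Ctcf was the only one of the 10 genes whose cKO libraries all lay below the WT libraries of their subset, in FO and in MZ alike, which held for 5.46% of all genes tested. Its cKO and WT libraries were 6469 and 6676 against 6773 and 6793 normalized counts in FO, and 5541 and 5699 against 5925 and 6045 in MZ B cells. The log2 difference of Ctcf was -0.0455 in FO (95% CI -0.22 to 0.12), -0.0909 in MZ (95% CI -0.26 to 0.08) and -0.0682 across subsets (limma adjusted p = 0.759). Without overlap in FO alone were Nipbl and Pds5a besides Ctcf, which makes 3 of 10 against 13.1% of all genes. In MZ alone they were Rad21, Smc3 and Pds5b besides Ctcf, 4 of 10 against 18.7% of all genes. None of the 10 lay wholly above WT in cKO libraries of either subset, and the share of all genes that did was not counted here.

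For the remaining genes the intervals bound what these libraries could show. Across subsets the 95% CI of the log2 difference was -0.19 to 0.03 for Rad21, -0.23 to 0.04 for Stag1, -0.21 to 0.05 for Nipbl, -0.15 to 0.09 for Wapl, -0.16 to 0.05 for Pds5a and -0.15 to 0.10 for Pds5b. For the X-linked Smc1a and Stag2 it was -0.15 to 0.07 and -0.15 to 0.13, with the Xist and Ddx3y levels above moving with genotype, whose part in these values was not tested. The outer bounds of all 10 intervals across subsets, -0.30 and 0.13, lie within 1.5-fold (0.58 on the log2 scale). Within a subset, with 2 libraries in each group, an exact permutation test of 1 gene cannot fall below 0.05.

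**Figure D4:**
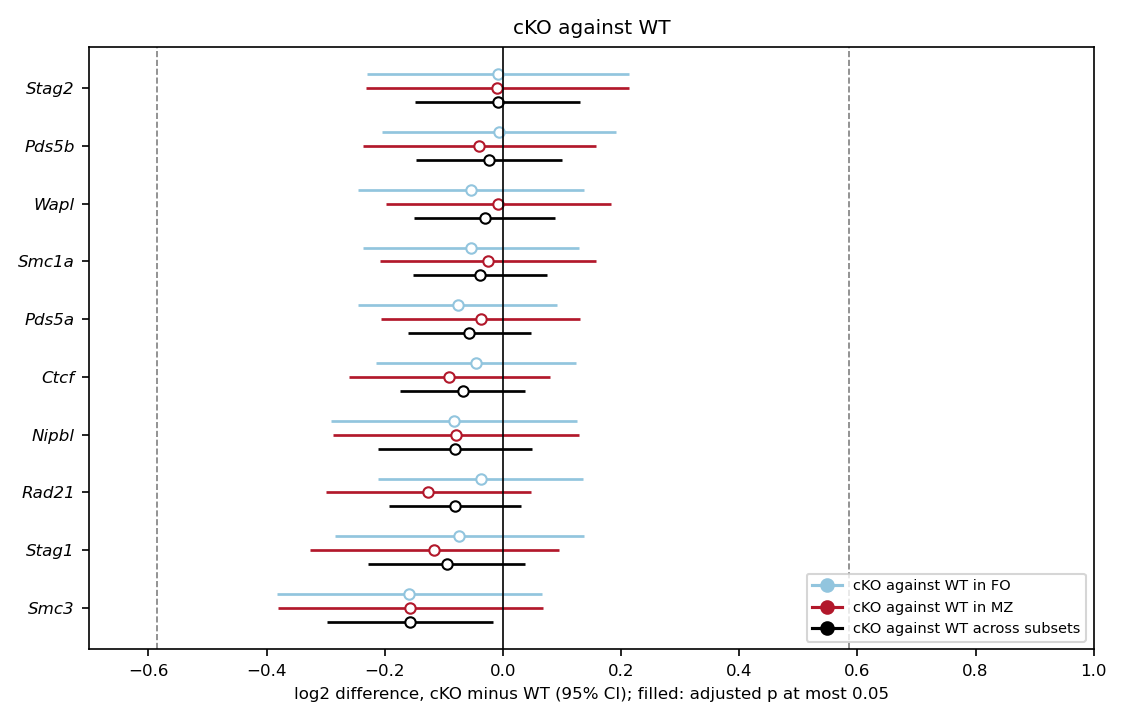
Log2 difference of cKO minus WT on the log2(normalized count + 1) scale for the 10 genes, in FO, in MZ and across subsets, with 95% confidence intervals from limma. No point is filled, since no adjusted p was at most 0.05, and all points lie between -0.16 and 0, with every interval inside the dashed lines at 1.5-fold.

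The genes whose profile over the 8 libraries was most like that of Ctcf, among 4984 genes with a mean of at least 1000 normalized counts, were Wdr91 (Pearson r = 0.995), Brpf1 (r = 0.995) and Polr2a (r = 0.994), on log2 values. In all, 729 of those genes had r of at least 0.9 with Ctcf. The 8 libraries share the FO and MZ split and their depth, so these r are a description. Polr2a, the largest subunit of RNA polymerase II, had 13861 and 14253 (WT) and 13122 and 13421 (cKO) normalized counts in FO, and 10316 and 10836 (WT) and 8668 and 9703 (cKO) in MZ cells.

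Other genes of chromosome structure were read from 4 lists of 42 genes, of which 38 were tested. Of the other 4, Smc1b was among those under the filter, and Rad21l and Ctcfl were not analysed here. Across genotypes, 17.1% of all genes tested passed as higher in MZ, and 10.9% did so at 1.5-fold. Among 11 cohesin partners and regulators, 6 passed as higher in MZ (all past 1.5-fold), 2 as higher in FO and 3 did not pass. The widest difference was that of Rec8, a kleisin known from meiotic cohesin, which takes the place of RAD21. Rec8 had 22.0 and 14.3 (WT) and 43.7 and 28.2 (cKO) normalized counts in the FO libraries, and 717 and 504 (WT) and 535 and 724 (cKO) in the MZ libraries, so that every MZ library was above every FO library. Its log2 difference was -4.56 (95% CI -5.09 to -4.03, limma adjusted p = 1.39e-05), 23.6-fold lower in FO. Stag3, the other meiotic subunit on the list, had 11.2 to 28.2 normalized counts in FO and 35.3 to 58.8 in MZ libraries (limma adjusted p = 0.0261), and it did not pass without any one of WT FO 1, WT MZ 1, WT MZ 2, cKO FO 1, cKO MZ 1 or cKO MZ 2.

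The remaining 4 genes of that list higher in MZ act in the cell cycle. The acetyltransferase gene Esco2 and the sororin gene Cdca5 establish or guard cohesion in S phase, Sgo1 protects it at centromeres, and Espl1 encodes separase, which cuts the kleisin. They were 6.85-fold, 5.40-fold, 2.28-fold and 6.85-fold lower in FO. The call of Sgo1 (limma adjusted p = 0.0485) was lost without the filter, under quantile or TMM scaling and without any single library other than WT FO 1 or cKO MZ 2. In the condensin list 5 of 8 genes passed as higher in MZ and none in FO: Ncapg (4.81-fold lower in FO), Ncapg2 (2.61-fold), Ncapd3 (2.19-fold), Ncaph (1.90-fold) and Ncapd2 (1.54-fold). The topoisomerase gene Top2a, also of dividing cells, was 4.99-fold lower in FO. All 10 proliferation markers were detected, and their sum was 734 to 1422 normalized counts in WT FO, 719.7 to 756 in cKO FO, 2745 to 6713 in WT MZ and 2288 to 5503 in cKO MZ B cells. The sum was higher in MZ, as these genes were, and its part in their differences was not tested. In WT MZ 1, WT MZ 2, cKO MZ 1 and cKO MZ 2, in this order, the sum was 2745, 6713, 5503 and 2288. Ncapg had 122, 330, 298 and 142 normalized counts there, and Ncaph 148, 332, 267 and 148. Ncapg2 had 179, 504, 376 and 210, and Ncapd2 1381, 2293, 1880 and 1331. Ncapd3 had 1403, 1337, 1415 and 1171, without the highest value in WT MZ 2. How far each gene followed the sum was not tested. Without cKO MZ 1, which stood apart above, Ncapg and Ncapd3 were the 2 condensin genes that passed and Rec8, Esco2, Cdca5 and Espl1 the 4 cohesin genes, and the count of condensin genes higher in MZ was also 2 without WT FO 1, WT MZ 2, cKO FO 1 or cKO FO 2. Ncapg2 and Ncaph also lost their calls without the filter, Ncaph under quantile normalization and Ncapg2 without cKO MZ 2.

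Higher in FO were Mau2, the partner of NIPBL, at 1.17-fold (limma adjusted p = 0.0469), which did not pass without the filter, under TMM or quantile scaling, by edgeR or without any single library other than WT FO 2. The acetyltransferase gene Esco1 was 1.34-fold higher. In the SMC5/6 complex, which acts in DNA repair, Nsmce1 (2.41-fold), Smc5 (1.39-fold) and Nsmce4a (1.25-fold) were higher in FO, while Smc6 was 1.75-fold lower. Nsmce4a did not pass under quantile normalization or without any one of WT FO 1, WT MZ 2, cKO FO 2, cKO MZ 1 or cKO MZ 2. Of 13 other architecture genes, 7 passed as higher in FO and 1, Top2a, as higher in MZ. They included Yy1, a zinc finger factor found at enhancer and promoter loops (1.28-fold), Satb1, a genome organizer of lymphocytes (2.76-fold), the lamin B receptor gene Lbr (1.56-fold) and Smchd1, a noncanonical SMC gene (1.54-fold). Lmna passed as well (3.39-fold), with WT FO 1 and cKO FO 1 at 280.4 and 225 normalized counts against 46.6 and 107 in the other FO libraries. The Lmna call was lost without the filter and without any one of WT MZ 2, cKO FO 1, cKO FO 2, cKO MZ 1 or cKO MZ 2. No gene of the 4 lists passed the limma test for cKO against WT in MZ, in FO or across subsets, nor for the interaction. By edgeR none passed either, and by DESeq2 1 did, Maz across subsets (DESeq2 adjusted p = 0.0291), with lower counts in cKO. In that DESeq2 comparison 68 of all 14761 genes passed as higher and 68 as lower in cKO. An unadjusted limma p under 0.05 was seen for 2, 3 and 6 of the 38 in MZ, in FO and across subsets. Of all 14761 genes tested, 596, 382 and 1230 had such a p. For the interaction none of the 38 had one, against 94 of all genes tested.

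**Figure D5:**
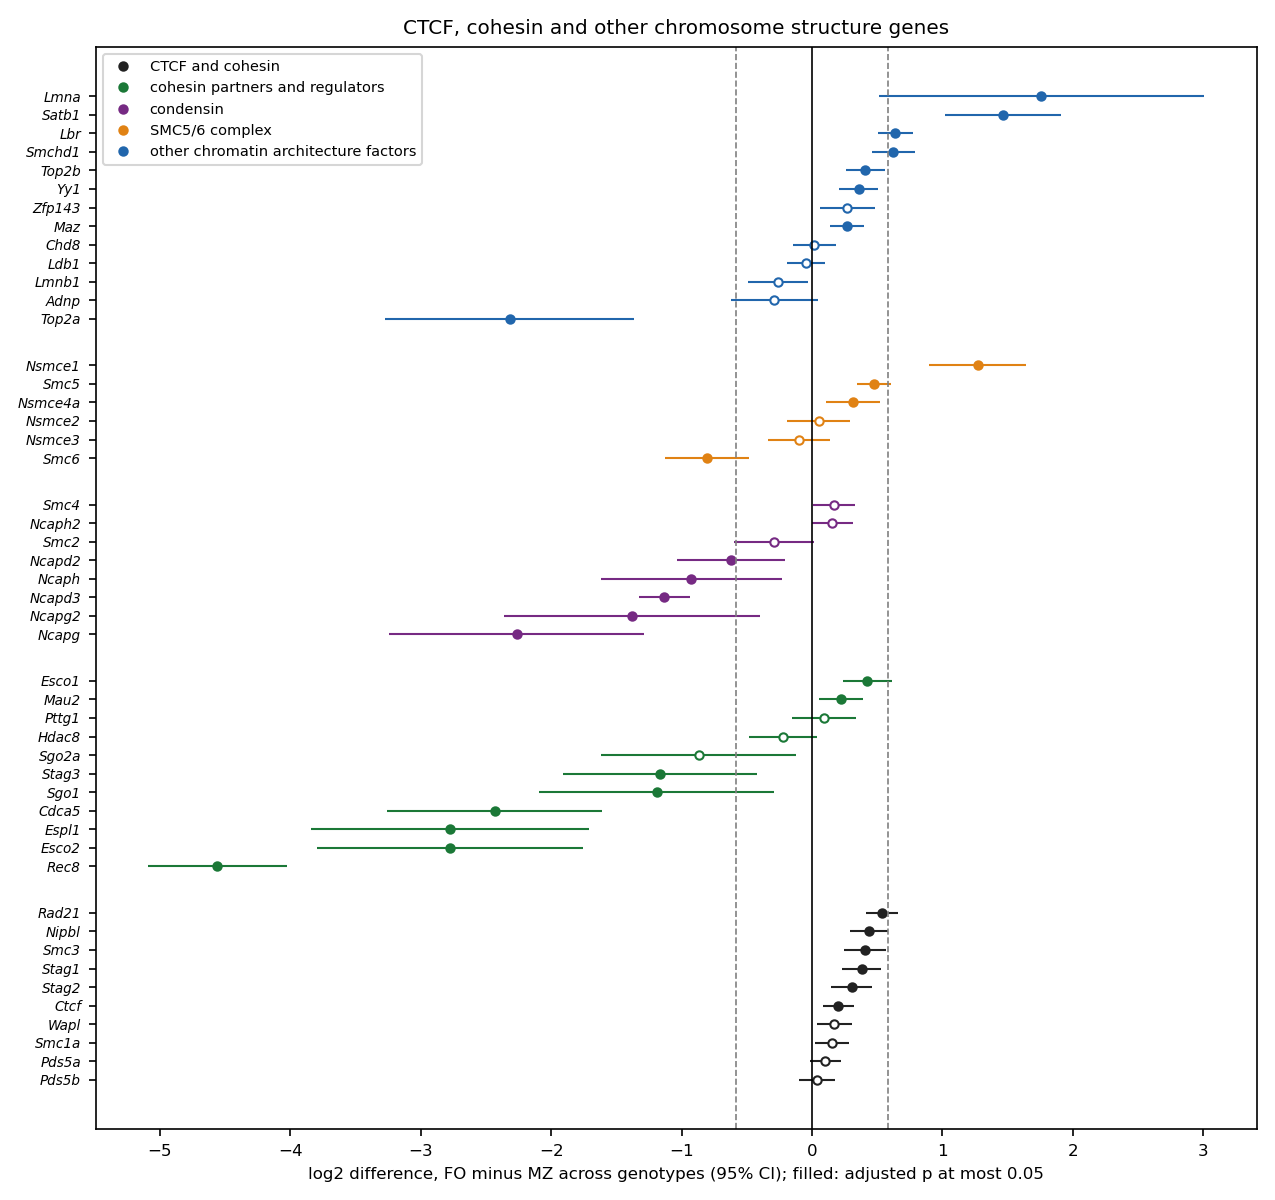
Log2 difference of FO minus MZ B cells across genotypes with 95% confidence intervals from limma, for the 10 genes of CTCF and cohesin and the 38 tested genes of 4 lists on chromosome structure. Filled points have an adjusted p of at most 0.05 and the dashed lines mark 1.5-fold. The CTCF and cohesin genes lie between 0.039 and 0.54, while Rec8 lies at -4.56 and Satb1 at 1.46.

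Whether the counting used strand is not given in the sources used here, so reads of genes that overlap on opposite strands cannot be told apart. The genes that share exon bases with Ctcf on the opposite strand were Agrp (114 bases, at most 9.97 normalized counts) and Gm5914 (370 bases, at most 42.9). Pds5a shares 255 exon bases with Gm42727 on the opposite strand, which was at most 129.9 normalized counts. The transcripts closest in sequence were the processed pseudogenes Gm8473 for Rad21 (84.1% identity over 1583 bases, at most 2.06 normalized counts) and Gm29763 for Smc3 (94.5% over 616 bases), whose own reads were not analysed here.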

How the data were processed

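RNA from sorted splenic B cells was sequenced as 50 bp single-end reads, in 2 libraries for each of 4 groups assigned by the labels. The authors aligned the reads to mm10 with HISAT2, counted them on genes (featureCounts and HTSeq are named) and deposited a normalized count table, a signal in which each value is reads divided by the DESeq2 size factor. Versions and strandedness of the counting are not given in the sources used here. Whole reads, within a tolerance of 0.01, were recovered for 100% of the values, and 21546552 to 25083552 reads lay on genes per library. The 256343 blank lines of the table were left out, and no row counts unassigned reads.

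Log2(normalized count + 1) was modelled by limma 3.58.1 under R 4.3.3, with lmFit and a trended eBayes, for genes with a mean of at least 10, and the pseudocount understates changes of low counts. The fit of the 4 group means gave FO against MZ in each genotype and across genotypes, cKO against WT in each subset and the interaction, and a fit of genotype and subset gave cKO against WT across subsets. The threshold was 0.05 for the p adjusted by Benjamini-Hochberg, and a call also took 1.5-fold. The comparisons share libraries, so their values stand side by side and are not independent. Alternatives were a pseudocount of 0.5, no filter, quantile and TMM scaling, only the 4 libraries compared, the replicate block, the whole reads tested by DESeq2 1.42.0 and by edgeR 4.0.16, a cutoff of 2-fold or of none, and each library left out. Counting at the adjusted p alone under each of these was chosen after seeing the data. The limma, edgeR and DESeq2 tests were run on simulated counts for FO against MZ in WT, and the other comparisons were not simulated.

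The members, the 4 lists, the marker lists and the rule for named genes were chosen with earlier results of these data known. Named are the 10 members, Gtf2i, list genes past 1.5-fold in a comparison with Mau2, Ctcfl and Yy1, and the 3 genes most correlated with Ctcf. Other list genes and the overlapping genes were named after their values were seen. Coordinates and exon lengths are from GENCODE M21 (GRCm38), in which all 10 members matched by identifier, promoters are from RefSeq (GRCm38.p6), and transcripts alike in sequence were searched with minimap2 2.31. The 8 ATAC-seq samples were not analysed here.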

Additional observations from a re-analysis of the deposited data

How the results depend on the processing

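At the adjusted p alone, 6 of the 10 genes were higher in FO across genotypes and 4 in each genotype. Across genotypes the count was 4 to 7 over the alternatives that keep all libraries, and 5 to 6 with each library left out in turn. In WT it was 1 with only the 4 libraries compared, where fewer libraries enter the spread, 3 to 5 under the others and 1 to 4 with each library left out. In cKO mice it was 3 to 5, and 1 to 4 with each library left out. Past 1.5-fold the count was 0 in every comparison, and without the fold cutoff it was 4 in WT, 4 in cKO mice and 6 across genotypes. With each library left out it was 0 to 1 in cKO mice. No gene of the 10 passed for cKO against WT or for the interaction under any alternative. Of the single differences of FO against MZ, 146 of 170 alternative values in WT, 156 of 170 in cKO and 139 of 150 across genotypes kept sign and side of the threshold. Quantile normalization moved the median of the 10 genes across genotypes from 0.26 to 0.12. Under quantile normalization the log2 differences that changed sign were Pds5b -0.056 for FO against MZ in WT, Pds5a -0.0869 and Pds5b -0.0624 for FO against MZ in cKO, Pds5a -0.0328 and Pds5b -0.0592 for FO against MZ across genotypes, Smc1a 0.0388, Stag2 0.0584, Wapl 0.0556, Pds5a 0.0477 and Pds5b 0.018 for cKO against WT in MZ, Pds5b 0.0117 for cKO against WT in FO, Smc1a 0.000149, Stag2 0.0276, Wapl 0.0135 and Pds5b 0.0149 for cKO against WT across subsets. Under TMM scaling the log2 differences that changed sign were Stag2 0.0015 and Wapl 0.00354 for cKO against WT in MZ, Stag2 0.000868 and Pds5b 0.00261 for cKO against WT in FO, Stag2 0.00119 for cKO against WT across subsets. By DESeq2 on 8 libraries the log2 differences that changed sign were Stag2 9.57e-05 and Wapl 0.00203 for cKO against WT in MZ. By DESeq2 on the 4 libraries compared the log2 differences that changed sign were Stag2 0.00266 and Wapl 0.00456 for cKO against WT in MZ, Stag2 0.00564 and Pds5b 0.00848 for cKO against WT in FO. By edgeR the log2 differences that changed sign were Stag2 0.00198 and Wapl 0.00389 for cKO against WT in MZ, Stag2 0.00233 and Pds5b 0.00514 for cKO against WT in FO, Stag2 0.00215 for cKO against WT across subsets. With each library left out in turn, the log2 differences that changed sign ranged as Pds5b -0.00478 to 0.0497 for FO against MZ in WT, Pds5b -0.0291 to 0.14 for FO against MZ in cKO, Pds5b -0.00333 to 0.0813 for FO against MZ across genotypes, Smc1a -0.0693 to 0.019 for cKO against WT in MZ, Stag2 -0.0268 to 0.00729 for cKO against WT in MZ, Stag2 -0.109 to 0.0921 for cKO against WT in FO, Wapl -0.113 to 0.00445 for cKO against WT in FO, Pds5b -0.0913 to 0.0779 for cKO against WT in FO, Stag2 -0.0495 to 0.031 for cKO against WT across subsets and Pds5b -0.0604 to 0.0073 for cKO against WT across subsets. None of these passed the test in either direction, and the cause of the changes in sign was not tested.

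The replicate number as a block gave 7 genes across genotypes and 5 in each genotype, with Wapl added across genotypes (limma adjusted p = 0.0471). The labels do not say whether libraries of the same number share a mouse or a batch. Between WT FO and WT MZ, the deviations of the first and second libraries correlated at 0.591. This correlation was -0.0015 between cKO FO and cKO MZ, and between -0.296 and 0.294 for the other pairs of groups. The main fit took in no pairing, and whether FO and MZ libraries were paired is not known. At 21546552 to 25083552 reads on genes counting error is small for the 10 genes, and the 2 libraries of a group limit the precision.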
